A study of Mus musculus with 18 samples.

Results

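Promoter contacts were compared between mouse erythrocytes and mouse embryonic stem cells (ESC) by next-generation Capture-C, with 6 capture viewpoints placed on the promoters of the α-globin genes (Hba), the β-globin genes (Hbb), Slc25a37, Eomes, Foxa2 and Lhx1. The comparison uses 6 of the 18 samples of the series, 3 erythrocyte and 3 ESC libraries captured with the promoter oligonucleotides, and 36 of its 108 columns of interactions, 1 for each library and viewpoint. Members were taken by sample label alone, without any measured value. The erythrocytes came from spleens of C57BL/6 mice treated with phenylhydrazine, an agent that destroys red cells and drives their renewal in the spleen (given in the labels as 40 mg per g body weight, 3 doses 12 h apart, with collection on day 5, a unit of mass that is printed as the labels have it and may be meant per kg). The ESC were cells of a 129/Sv//EV line taken at day 0 from undifferentiated culture with LIF on gelatin. Both groups are called biological triplicates, without a statement of whether each erythrocyte library came from 1 mouse or several, so the p-values measure the spread between these libraries. Cell type and mouse strain change together in this comparison and cannot be told apart. The files hold contacts and no expression, so the labelled cell types could not be checked against marker transcripts.

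In Capture-C, chromatin is crosslinked, cut with the restriction enzyme DpnII and religated, and the ligation products of chosen fragments are pulled down with biotinylated oligonucleotides and sequenced, so each interaction is 1 ligation between the viewpoint and another DpnII fragment. The globin genes are the textbook case of distant control: in red cells, a cluster of enhancers lying within the neighbouring gene Nprl3 contacts the α-globin promoters, and the locus control region contacts the β-globin promoters. Slc25a37 encodes mitoferrin-1, the mitochondrial iron importer that feeds haem synthesis. Eomes, Foxa2 and Lhx1 encode transcription factors of the early embryo that act in mesoderm and endoderm. They are not known as genes of red cells.

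Each library held between 3744 and 86404 interactions per viewpoint. Since the same 3C libraries were captured for all 6 promoters, the viewpoints are not independent replicates of a library's properties. The density of trans contacts on the X chromosome over that on the autosomes was 0.35 to 0.57 in the ESC columns. In the erythrocyte columns it ran from 0.4001 to 1.3, with a median of 0.86. Y-chromosome fragments took 1 to 20 reads per ESC column and 0 to 1 per erythrocyte column, so the sex chromosomes also differed between the groups. The labels give no sex.

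The share of interactions that stayed on the viewpoint's own chromosome (in cis) divided the erythrocyte libraries among themselves more than it divided erythrocytes from ESC. At Hba the cis share was 27.9, 71.7 and 26.5% in erythrocytes and 72.97, 70.5 and 65.3% in ESC. At Hbb it was 26.5, 71.1 and 22.1% in erythrocytes and 72.1, 71.5 and 63.9% in ESC. Erythrocyte libraries 1 and 3 were low and erythrocyte library 2 was close to the ESC at both globin viewpoints. At Eomes the shares were 40.9, 75.1 and 39.3% in erythrocytes and 64.4, 65.9 and 57.5% in ESC, at Foxa2 44.7, 79.4 and 42.8% in erythrocytes and 70.7, 70.3 and 63.4% in ESC. Here erythrocyte library 2 lay above all 3 ESC libraries. Lhx1 gave 38.1, 73.3 and 37.8% in erythrocytes and 65.3, 65.2 and 55.9% in ESC, and Slc25a37, the most trans-rich viewpoint in ESC, gave 29.6, 66.2 and 26.6% in erythrocytes and 57.1, 54.995 and 52.03% in ESC. Group means differed by -10.8 percentage points at Eomes to -29.2 at Hbb (erythrocyte minus ESC), the ranges of the groups overlapped at every viewpoint, and the two-sided exact permutation p ran from 0.2 to 0.4. With 3 libraries against 3 the smallest p this test can give is 0.1. With erythrocyte library 2 alone the difference turned positive at all 6 viewpoints, from 1.98 points at Hbb to 12.5 at Eomes, and without it the differences ran from -22.5 at Eomes to -44.9 at Hbb, so the negative mean rests on libraries 1 and 3. Counting error was small beside this gap: the shallowest column, Slc25a37 in erythrocyte library 2, had a 95% Wilson interval of 64.6 to 67.7%. Such intervals cover counting error alone.

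A cis chromosome also receives random ligations at the rate seen in trans, and this background moved with the same libraries. Spread over the cis chromosome at the trans density per Mb, it would make up 7.13 to 17.01% of cis interactions in erythrocyte library 1 and 7.62 to 21.6% in library 3 across the viewpoints. In erythrocyte library 2 it would make up 1.64 to 2.55%, within or below the ESC range of 1.79 to 4.58%. Erythrocyte library 3 differed in a second way. Of its cis interactions, 32.02 to 44.97% lay under 5 kb from the captured zone, against at most 24.2% in any other library at any viewpoint. Many values are therefore given per library, while several class shares are given as mean ± SD and many windows by log2 fold change alone. The class shares, slopes, side shares and counts of called bins and windows below were recomputed with the trans density subtracted and with erythrocyte library 2 alone.

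**Figure D1:**
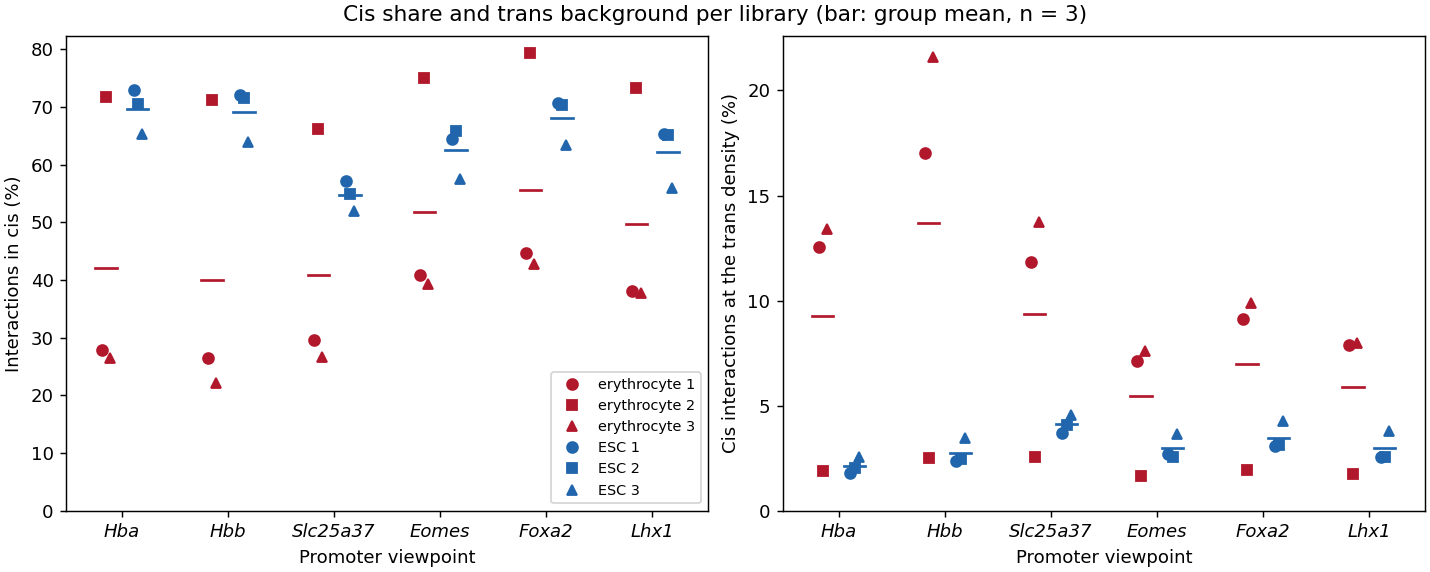
Left, percentage of interactions in cis for each library (points) and group mean (bars, n = 3) at the 6 promoter viewpoints. Right, percentage of cis interactions expected at the trans density. Erythrocyte libraries 1 and 3 sat below every ESC library on the left and above every ESC library on the right, while erythrocyte library 2 sat apart from them.

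Within cis, the distance class from 200 kb to 2 Mb held a smaller share in erythrocytes than in ESC at all 6 promoters, and no erythrocyte library reached any ESC library. At Hbb this class held 8.66, 9.04 and 5.22% in erythrocytes and 39.8, 41.02 and 40.1% in ESC, a difference of -32.6 points. At Foxa2 it held 11.6, 14.3 and 8.29% in erythrocytes and 33.4, 33.8 and 33.3% in ESC. The Hba values were 9.61, 9.52 and 5.595% in erythrocytes and 21.6, 22.2 and 21.3% in ESC. Slc25a37 had 9.31, 12.2 and 5.93% in erythrocytes and 22.6, 23.9996 and 23.9% in ESC. Eomes had 17.6, 20.6 and 13.6% in erythrocytes and 26.5, 27.6 and 27.4% in ESC and Lhx1 14.9, 17.3 and 10.1% in erythrocytes and 25.1, 25.9 and 25.4% in ESC, and here the groups were closer but still apart. Each of the 6 differences gave an exact permutation p of 0.1, the smallest possible, and kept its direction in every alternative.

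The neighbouring distance classes differed less uniformly. From 20 to 200 kb, erythrocytes had less at Eomes (13.2 ± 1.59% against 25.1 ± 0.849%, mean ± SD, n = 3 each), Lhx1 (12.9 ± 3.29% against 20.6 ± 0.274%), Foxa2 (9.44 ± 2.34% against 14.9 ± 0.561%) and Hba (21.1 ± 4.43% against 26.99 ± 0.755%). At Hbb they had more, 24.9 ± 8.62% against 18.5 ± 1.41%, with libraries at 21.9, 34.6 and 18.2% in erythrocytes and 20.0, 18.4 and 17.2% in ESC, but with the first class ending at 50 kb in place of 20 kb the difference turned to -4.49 points. Slc25a37 showed no direction, 23.5 ± 5.12% against 23.96 ± 1.34%, its small difference changing sign in 5 alternatives. Beyond 2 Mb, the share was higher in erythrocytes at Eomes (42.04 ± 5.21% against 24.6 ± 1.54%), Foxa2 (45.9 ± 10.98% against 25.96 ± 1.07%) and Lhx1 (38.7 ± 7.22% against 23.1 ± 0.185%), and these 3 differences remained after the trans density was subtracted, at 16.4, 18.4 and 14.2 points. The globin viewpoints had 33.03 ± 6.403% against 23.2 ± 1.58% at Hba and 38.8 ± 7.96% against 26.2 ± 1.71% at Hbb beyond 2 Mb, and after subtraction the libraries overlapped, 26.4 ± 7.54% against 21.6 ± 1.31% and 29.2 ± 9.099% against 24.1 ± 1.35%. At Slc25a37 the far share was 33.4 ± 6.56% against 32.5 ± 1.503%, and subtraction turned the difference to -3.098 points. Under 20 kb the share was higher in erythrocytes in group mean everywhere, 37.6 ± 9.902% against 28.1 ± 1.21% at Hba and 28.7 ± 10.1% against 15.03 ± 0.585% at Hbb, but erythrocyte library 3 carried much of this. Without it the difference was -1.22 points at Eomes, -1.41 at Foxa2 and -4.45 at Lhx1. At Hbb this class includes the window around Hbb-b2, where only 6 of 16 fragments held any ESC read. Absence of mapped reads there cannot be told apart from absence of contact.

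The fall of contact with distance was steeper in erythrocytes at 5 promoters between 20 kb and 2 Mb. The slope of log2 interactions per kb on log2 distance was -1.31, -1.48 and -1.41 in erythrocytes and -0.72, -0.68 and -0.65 in ESC at Hbb, the widest gap of the 6. At Hba it was -1.32, -1.41 and -1.47 in erythrocytes and -1.13, -1.12 and -1.12 in ESC. Slc25a37 gave -1.33, -1.31 and -1.35 in erythrocytes and -1.02, -0.98 and -0.96 in ESC. At these 3 viewpoints every erythrocyte library lay above every ESC library in the distance windows centred on 25.2 and 39.9 kb, and below every ESC library in the 6 windows from 159 kb outwards. At Foxa2 the slopes were -0.94, -0.93 and -0.93 in erythrocytes and -0.76, -0.72 and -0.70 in ESC. Lhx1 slopes differed by -0.05 in mean, at -0.981, -0.940 and -0.994 in erythrocytes and -0.923, -0.935 and -0.919 in ESC. At Eomes the erythrocyte decay was the shallower one, -0.90, -0.83 and -0.95 in erythrocytes and -1.05, -1.02 and -0.995 in ESC. All 6 differences separated the libraries (exact permutation p = 0.1 each), at Lhx1 only narrowly. Measured from 50 kb to 5 Mb, the difference changed sign at Hba (0.15), Hbb (0.045), Slc25a37 (0.13), Foxa2 (0.13) and Lhx1 (0.23).

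The median distance of interactions lying 20 kb to 2 Mb away gives the same curves in kb. It was 65.2, 45.6 and 44.9 kb in erythrocytes and 387, 437 and 469 kb in ESC at Hbb. At Slc25a37 it was 48.2, 45.1 and 40.03 kb in erythrocytes and 186, 199 and 214 kb in ESC, and at Hba 65.3, 56.002 and 49.97 kb in erythrocytes and 156, 163 and 164 kb in ESC. None of these 9 erythrocyte medians exceeded 65.3 kb, and none of the 9 ESC medians was under 156 kb. The embryonic genes had long medians in both cell types, 246, 245 and 247 kb in erythrocytes and 444, 456 and 444 kb in ESC at Foxa2, 221, 211 and 216 kb in erythrocytes and 231, 232 and 238 kb in ESC at Lhx1 and 266, 287 and 231 kb in erythrocytes and 205, 218 and 220.1 kb in ESC at Eomes, where the direction was opposite. Each of the 6 differences separated the libraries completely (exact permutation p = 0.1) and kept its direction with any 1 library left out and with erythrocyte library 2 alone. This measure was added after the data were seen.

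**Figure D2:**
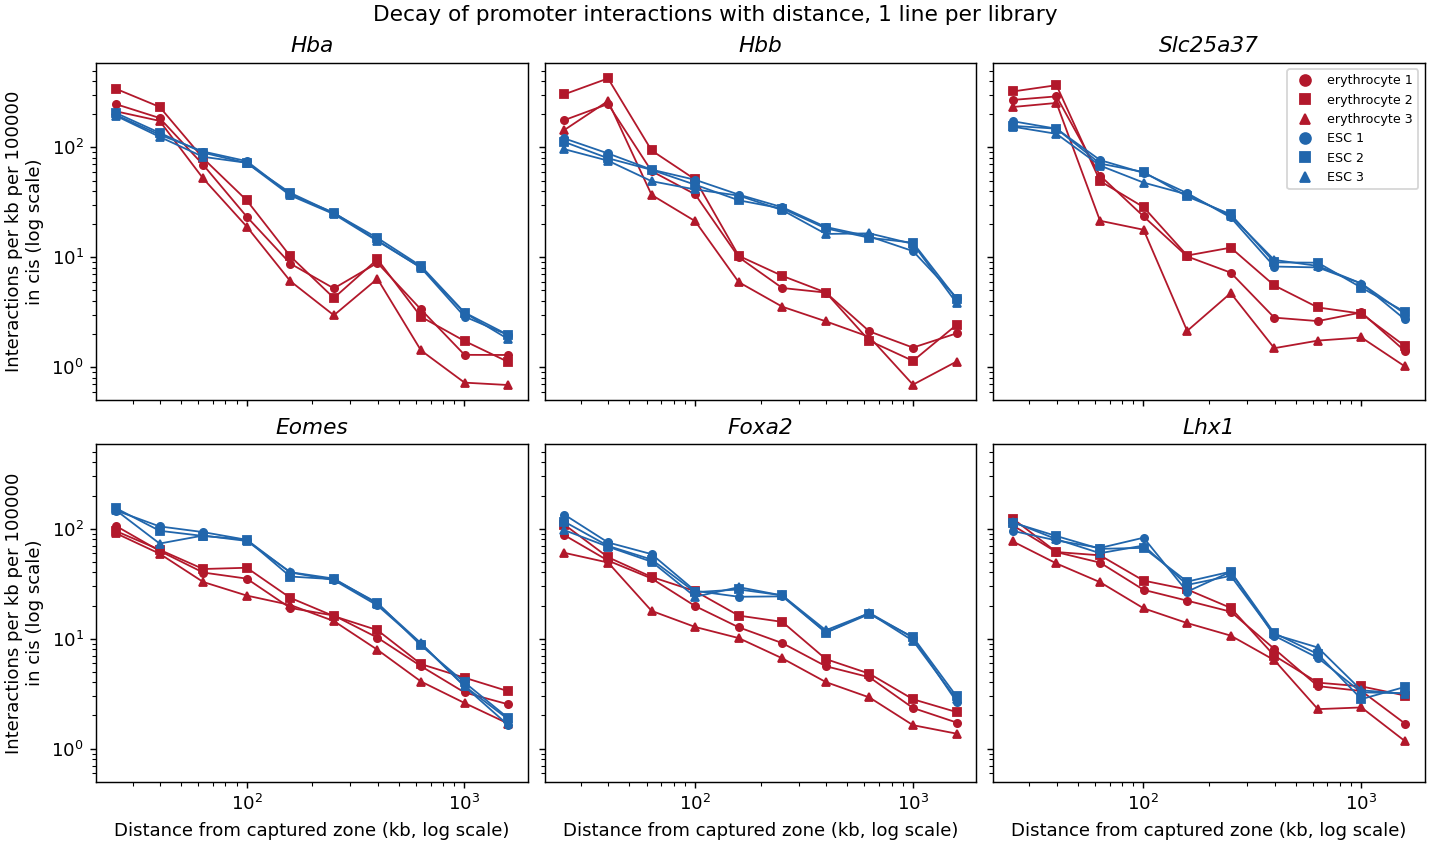
Interactions per kb per 100000 cis interactions against distance from the captured zone (both axes log scale), 1 line per library. At Hba, Hbb and Slc25a37 the erythrocyte lines lay above the ESC lines at 25.2 and 39.9 kb and below them from 159 kb, whereas at Eomes, Foxa2 and Lhx1 they lay below them at 39.9 and 63.2 kb already.

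Which side of the promoter the contacts lay on separated the 2 cell types at every viewpoint. This was scored as the percentage of interactions at lower coordinates, in each distance class. Between 20 and 200 kb from the α-globin promoters, 84.2, 86.3 and 85.3% in erythrocytes and 59.2, 59.1 and 58.3% in ESC lay on the side of Nprl3. At Hbb, 20.7, 18.1 and 13.7% in erythrocytes and 37.7, 38.9 and 42.2% in ESC lay at lower coordinates, so most erythrocyte interactions lay on the side of the locus control region. Slc25a37 had 38.8, 36.8 and 32.3% in erythrocytes and 51.7, 51.5 and 47.1% in ESC, also leaning to higher coordinates, upstream of the gene, in erythrocytes. At the embryonic genes the erythrocyte libraries lay nearer to 50% than the ESC libraries. Eomes had 54.4, 55.3 and 55.9% in erythrocytes and 73.4, 72.5 and 75.6% in ESC, Lhx1 49.6, 50.3 and 47.4% in erythrocytes and 27.02, 26.8 and 27.1% in ESC and Foxa2 49.4, 51.3 and 52.4% in erythrocytes and 56.6, 56.7 and 60.8% in ESC.

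From 200 kb to 2 Mb, the lean to one side was set by the ESC at Foxa2, with 47.3, 45.1 and 48.0% in erythrocytes and 77.2, 76.96 and 76.1% in ESC at lower coordinates, and by the erythrocytes at Hba, with 63.3, 67.98 and 67.2% in erythrocytes and 45.2, 44.3 and 45.9% in ESC, and Slc25a37, with 30.4, 20.6 and 26.7% in erythrocytes and 47.4, 45.6 and 46.2% in ESC. Hbb had 52.5, 48.5 and 41.6% in erythrocytes and 66.5, 65.1 and 60.9% in ESC, Eomes 54.4, 51.7 and 54.5% in erythrocytes and 61.004, 59.8 and 59.5% in ESC and Lhx1 41.7, 45.4 and 40.7% in erythrocytes and 36.8, 36.7 and 37.2% in ESC. All 12 differences, 6 viewpoints in 2 classes, separated the libraries completely with an exact permutation p of 0.1 each, and all kept their direction when trans density was subtracted, when erythrocyte library 2 stood alone and when any 1 library was left out. The side share was, like the median distance, chosen after the data were seen.

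**Figure D3:**
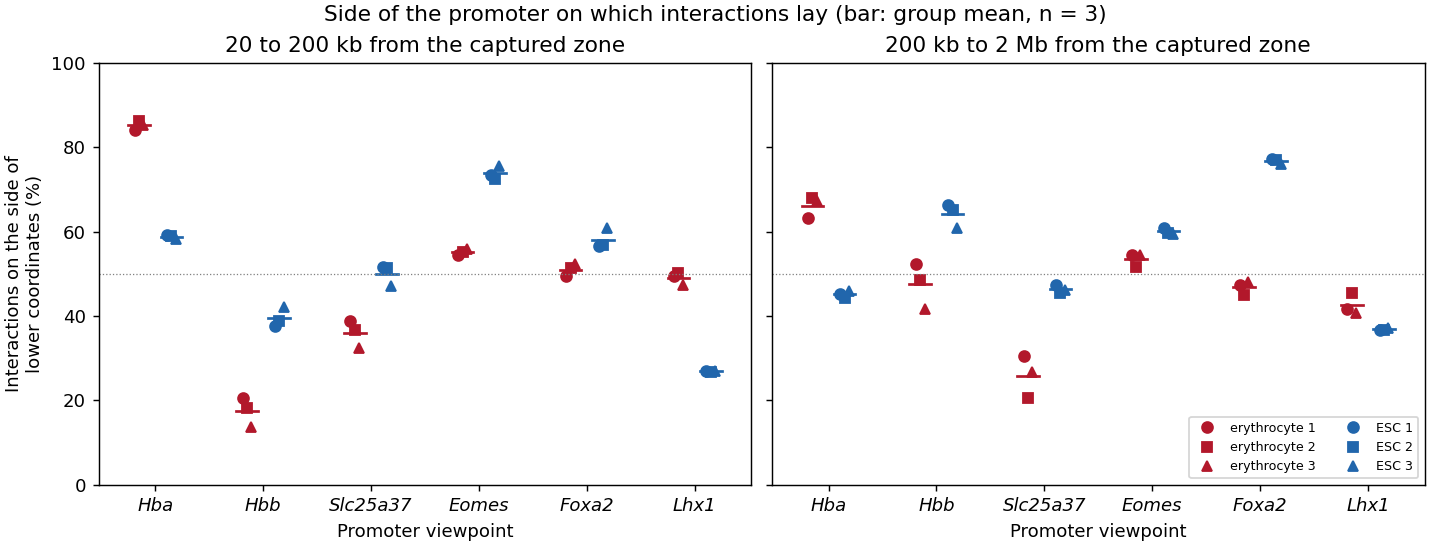
Percentage of interactions on the side of lower coordinates for each library (points) and group mean (bars, n = 3), 20 to 200 kb (left) and 200 kb to 2 Mb (right) from the captured zone. The dotted line marks 50%. Erythrocyte and ESC libraries did not overlap at any viewpoint in either panel.

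For a map of single contacts, each cis chromosome was divided into 5 kb bins and those with at least 10 reads over the 6 libraries were tested (limma on log2 of signal per 100000 cis interactions plus 10, with Benjamini-Hochberg adjusted p under 0.05 as the call). The signal of a bin or window below is always on this scale of 100000 cis interactions, and a log2 fold change is erythrocyte over ESC on the scale with 10 added. On this scale lost contacts outnumbered gained ones at all 6 promoters. The read minimum pools both groups, so a bin could be tested on the reads of 1 group alone. At Hbb 262 of the 345 tested bins lay 200 kb to 2 Mb away, where ESC held the larger share. With no minimum count the split was 5 higher and 1 lower at Slc25a37. It was 18 higher and 97 lower at Hba, 2 and 32 at Eomes, 1 and 35 at Foxa2 and 2 and 12 at Lhx1. At Hbb 232 of 345 bins were lower in erythrocytes (67.2%) and 16 higher (4.64%). At Slc25a37 122 of 344 were lower (35.5%) and 8 higher (2.33%). Hba, sequenced most deeply, had 226 of 1416 lower (16.0%) and 38 higher (2.68%). Among the embryonic genes, 125 of 437 bins were lower at Foxa2 (28.6%) with 1 higher (0.229%), 84 of 468 were lower at Eomes (17.9%) with 5 higher (1.07%), and 59 of 372 were lower at Lhx1 (15.9%) with 0 higher (0%). For Lhx1, limma called 2 bins higher at an unadjusted p under 0.05, edgeR 4 and DESeq2 5 after adjustment.

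The number of called bins depended on each ESC library. Against 264 called at Hba, 248 at Hbb, 130 at Slc25a37, 89 at Eomes, 126 at Foxa2 and 59 at Lhx1, leaving out ESC library 1 left 129, 156, 49, 14, 65 and 27. Without ESC library 2 the numbers were 69, 174, 39, 17, 51 and 0, and without ESC library 3 they were 203, 154, 46, 37, 72 and 22. Lower bins outnumbered higher ones at each viewpoint in all of these that made calls. The median bin itself shifted by -0.36 at Hba, -2.41 at Hbb, -1.75 at Slc25a37, -0.54 at Eomes, -1.18 at Foxa2 and -0.94 at Lhx1 on the log2 scale, and TMM scaling moved these medians to -0.35, -1.74, -1.54, -0.20, -0.71 and -0.64. With DESeq2 they were 0.25, -2.22, -1.35, 0.11, -0.37 and -0.11, turning positive at Hba and Eomes. The split was not the same under every setting. Scaled to cis and trans together it was 10 higher and 317 lower at Hba, and with TMM 22 higher and 109 lower at Hbb. With DESeq2 it was 155 higher and 74 lower at Hba, 11 higher and 12 lower at Slc25a37, 13 higher and 26 lower at Eomes, 7 higher and 35 lower at Foxa2 and 5 higher and 13 lower at Lhx1, so that gains outnumbered losses at Hba. Tested as single DpnII fragments, of which 266 reached the read minimum at Hbb, the split there was 71 higher and 7 lower, and it was 28 higher and 29 lower at Slc25a37.

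Losses were counted by distance class. From 20 to 200 kb, 58 of 72 tested bins were lower at Hba, 23 of 68 at Hbb, 18 of 71 at Slc25a37, 11 of 71 at Foxa2, 26 of 72 at Eomes and 13 of 72 at Lhx1. From 200 kb to 2 Mb, 208 of 262 tested bins were lower at Hbb, 163 of 623 at Hba, 100 of 255 at Slc25a37, 104 of 332 at Foxa2, 48 of 320 at Eomes and 40 of 272 at Lhx1. Of the gained bins, all 8 at Slc25a37 were inside 200 kb, 4 of 9 tested bins under 20 kb and 4 of 71 from 20 to 200 kb. At Hbb 12 of the 16 were inside 200 kb, 4 of 11 tested bins under 20 kb and 8 of 68 from 20 to 200 kb. The other 4 at Hbb lay beyond 2 Mb, where only 4 bins reached the read minimum. Tested bins under 20 kb at Hbb take in Hbb-b2, where absence of mapped ESC reads cannot be told apart from absence of contact. At Hba the gained bins were 2 of 12 tested under 20 kb, 4 of 72 from 20 to 200 kb, 4 of 623 from 200 kb to 2 Mb and 28 of 709 beyond 2 Mb.

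**Figure D4:**
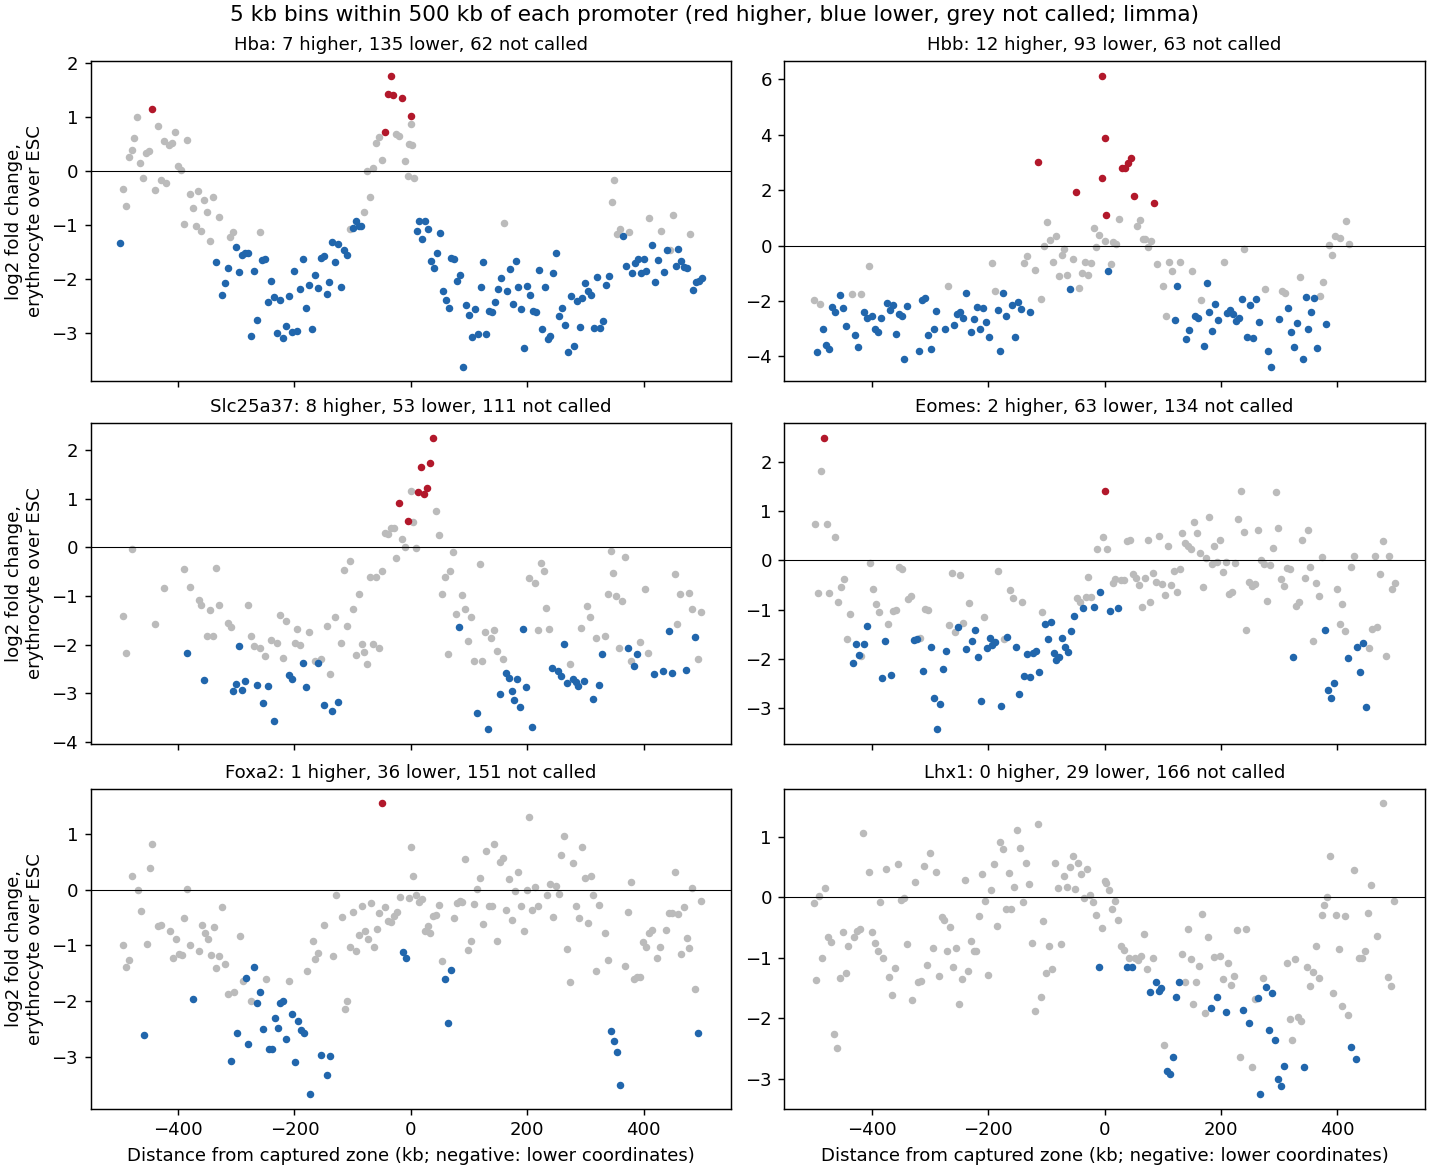
The log2 fold change (erythrocyte over ESC) of each tested 5 kb bin within 500 kb of the captured zone against its distance, with negative distances at lower coordinates. Red bins were higher and blue bins lower in erythrocytes by limma. Red bins cluster on the Nprl3 side of Hba, on the locus control region side of Hbb and on the upstream side of Slc25a37, with blue bins beyond them.

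At the α-globin promoters, contacts were gained over Nprl3, a gene for a subunit of a regulator of mTORC1 whose introns hold the α-globin enhancers, and were lost on the opposite side. The window of 5 kb to each side of the Nprl3 start (chr11, mm9, 14.6 kb from the captured zone) had a signal of 4216, 6060.1 and 4849 in the erythrocyte libraries and 2205, 2181 and 2069.9 in the ESC libraries. All erythrocyte libraries exceeded all ESC libraries (log2 fold change 1.21 ± 0.21 (SE), adjusted p = 0.0011). The window over the gene body had 13839, 18939 and 13066 in the erythrocyte libraries and 7185, 7171 and 6646 in the ESC libraries (log2 fold change 1.11 ± 0.19 (SE), adjusted p = 0.0011). Both Nprl3 calls held in 15 of 16 alternatives and were lost when the signal was scaled to cis and trans together, at 0.32 and 0.22, a scale on which the low cis share of erythrocyte libraries 1 and 3 enters. Over the gene, the 5 kb bins at chr11:32135001-32140000 to chr11:32150001-32155000 were higher, as was that at chr11:32165001-32170000, which spans the gene start. Their log2 fold changes were 0.73 to 1.77. The pair of bins between them missed the threshold at adjusted p of 0.065 and 0.058. Of these bins in the gene, the highest fold change was at chr11:32145001-32150000, with 2243, 2897 and 1865 in erythrocytes and 658, 651 and 692 in ESC (log2 fold change 1.77 ± 0.24 (SE), adjusted p = 2.91e-04). On the chromosome as a whole, greater fold changes were in sparse bins 21645 to 26545 kb away, at Butr1, Slc22a4 and again Butr1. They were 2.49, 2.12 and 2.11 on the log2 scale, from 28, 23 and 19 erythrocyte reads and 0, 4 and 1 ESC reads.

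Called DpnII fragments of 100 to 1000 bases, over 10 kb from the captured zone, were ranked by their rise in mean signal. The first, chr11:32167510-32168370 (861 bases), spanned the start of Nprl3 at chr11:32167707, and most of it lay upstream of the gene. It had 278, 418 and 575 in erythrocytes and 58.7, 106 and 95.9 in ESC (log2 fold change 2.14 ± 0.37 (SE), adjusted p = 0.014). The central 300 bases of it, mm9 chr11:32167790-32168089, plus strand, are printed because they lie in the fragment whose signal rose most by this rule. They lie wholly upstream of the gene start, outside Nprl3. Longer and nearer fragments were not ranked. Capitals, in this and the following sequences, mark AGATAA on either strand and its forms that begin with T, end with G or do both, the letters of the motif of the red-cell factor GATA1.
Hba contact: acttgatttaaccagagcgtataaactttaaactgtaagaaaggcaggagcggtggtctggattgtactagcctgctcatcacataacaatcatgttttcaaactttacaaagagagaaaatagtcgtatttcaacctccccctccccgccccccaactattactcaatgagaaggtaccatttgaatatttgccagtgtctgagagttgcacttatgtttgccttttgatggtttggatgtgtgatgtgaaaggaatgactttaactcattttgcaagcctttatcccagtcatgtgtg
This stretch held none of these words, and the whole fragment held 1. Of 2892 windows of 300 bases around the Hba viewpoint, 46.5% held at least 1, and a match or its absence is a description only.

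Of the 15 gene windows tested from Hba, 3 were higher, 4 lower and 8 not called. Their median log2 fold change was 0.34. All tested bins had a median of -0.36, with 2.68% higher and 16.0% lower. The bin median was 0.33 under 20 kb, -1.80 from 20 to 200 kb and -0.85 from 200 kb to 2 Mb. Here and at the other viewpoints, windows and bins were not matched for distance, so their medians are not like for like. The third higher window was Hba-a2, an adult α-globin gene, with 7717, 7054 and 14649 in the erythrocyte libraries and 5636, 5098 and 5268 in the ESC libraries (log2 fold change 0.80 ± 0.25 (SE), adjusted p = 0.035). This window includes part of the captured zone, and the 2 adult α-globin genes are near-identical copies between which reads may be split. The call for Hba-a2 was lost in 6 of 16 alternatives, among them leaving out any 1 of the ESC libraries. Under scaling to cis and trans its change was -0.088. Its twin Hba-a1 (0.63 ± 0.24 (SE)), the θ-globin genes Hbq1a (0.66 ± 0.24 (SE)) and Hbq1b (0.53 ± 0.21 (SE)) and the embryonic ζ-globin gene Hba-x (0.06 ± 0.19 (SE)) did not pass. Nor did the genes beyond Nprl3 on the same side, Mpg, a DNA repair glycosylase (0.50 ± 0.23 (SE)), Rhbdf1, an inactive rhomboid (0.34 ± 0.24 (SE)), Snrnp25, a protein of the minor spliceosome (-0.43 ± 0.31 (SE)), and Il9r, the interleukin 9 receptor (-0.83 ± 0.30 (SE)). These 4 values went from above 0 to below 0 with distance. Without erythrocyte library 3, 11 windows were called in place of 7, 7 of them higher. The split was 9 higher and 2 lower with DESeq2, 6 higher and 4 lower with the trans density subtracted and 0 higher and 4 lower under scaling to cis and trans.

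The 4 lower windows all lay on the other side. Sh3pxd2b, an adaptor of podosomes, had 237, 230.1 and 171 in the erythrocyte libraries and 585, 645 and 573 in the ESC libraries (log2 fold change -1.47 ± 0.27 (SE), adjusted p = 0.0019). Ubtd2, a ubiquitin-domain protein, gave -1.51 ± 0.30 (SE). Both calls were lost with DESeq2 and with no minimum count. Stk10, a serine/threonine kinase of lymphocytes, fell from 441 reads over the ESC libraries to 10 over the erythrocyte libraries, with signals of 24.9, 20.9 and 0 in the erythrocyte libraries and 325, 330.3 and 326 in the ESC libraries (log2 fold change -3.93 ± 0.45 (SE), adjusted p = 2.55e-04). Efcab9, a sperm calcium channel subunit whose start is near that of Stk10, gave -3.84 ± 0.46 (SE), and these windows overlap. Of the tested bins 20 to 200 kb away at higher coordinates, 35 of 36 were lower, against 23 of 36 at lower coordinates, where 4 were higher.

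At the β-globin promoters, a gain lay over the locus control region. The window used for it was the 60 kb upstream of the embryonic gene Hbb-y on chr7, which also takes in Olfr66, Olfr64 and Olfr65. This window had 13921, 23851 and 13499.8 in the erythrocyte libraries and 5124, 4946 and 3568 in the ESC libraries (log2 fold change 1.87 ± 0.28 (SE), adjusted p = 5.30e-04). Every erythrocyte library had over 2 times the highest ESC library. The call was lost under scaling to cis and trans alone, at 0.88. Inside it, 4 adjoining bins from chr7:111005001-111010000 to chr7:111020001-111025000 had log2 fold changes of 2.79 to 3.14. The greatest was in the last of them, with 1583, 3049 and 2127 in erythrocytes and 272, 332 and 146 in ESC (log2 fold change 3.14 ± 0.44 (SE), adjusted p = 4.78e-04), a pooled ratio of 8.202. Just before these 4 bins, the bin at chr7:111000001-111005000 over Hbb-y did not pass (0.95, adjusted p = 0.059). After them the change was 1.77 at the next bin and 0.70 one further, no longer called. At the far edge of the window, the bin at chr7:111060001-111065000 over Olfr631 was again called higher (1.52, adjusted p = 0.019). Greater changes than in the 4 bins were found 17145 kb away at Cdr2 (3.25) and 3349 kb away at C2cd3 (3.21). Those far bins held 14 and 11 erythrocyte reads and no ESC read.

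By the same rule, the fragment with the largest rise was chr7:111019507-111020366 (860 bases), which drew 73 reads over the erythrocyte libraries and 4 over the ESC libraries, or 469, 480.4 and 832 in erythrocytes and 24.8, 52.4 and 0 in ESC as signal (log2 fold change 4.38 ± 0.71 (SE), adjusted p = 2.76e-04). Its central 300 bases, mm9 chr7:111019786-111020085, plus strand, show DNA of the locus control region in the fragment that this rule picked.
Hbb contact: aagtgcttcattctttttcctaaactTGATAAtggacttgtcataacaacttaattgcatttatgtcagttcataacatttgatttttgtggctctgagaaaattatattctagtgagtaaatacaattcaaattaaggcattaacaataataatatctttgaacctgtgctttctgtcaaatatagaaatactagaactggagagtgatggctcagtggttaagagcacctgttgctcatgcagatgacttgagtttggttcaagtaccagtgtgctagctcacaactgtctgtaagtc
They held 1 GATA word, as at least 1 did in 54.01% of 1996 windows of that length around Hbb.

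Of 13 windows at Hbb, 3 were higher and 10 not called, with a median of -0.02. All tested bins had a median of -2.41, with 4.64% higher and 67.2% lower. The bin median was 0.37 under 20 kb, -0.93 from 20 to 200 kb and -2.62 from 200 kb to 2 Mb. Hbb-b2, an adult β-globin gene and itself one of the captured pair, had 5554, 5096 and 14748 in the erythrocyte libraries and 495, 542 and 409 in the ESC libraries (log2 fold change 3.94 ± 0.42 (SE), adjusted p = 4.78e-04). Only 6 of its 16 fragments held any ESC read, while all held erythrocyte reads, and the longest run without an ESC read, which passes the edge of the window, was 12 fragments at chr7:110964839-110967774, with 146 erythrocyte reads. The same count for Hbb-b1, the other adult gene, was 17 of 17 fragments with ESC reads, and its window was not called (0.33 ± 0.29 (SE)). ESC and erythrocytes come from different strains, reads were mapped to 1 reference, and absence of mapped reads cannot be told apart from absence of contact at Hbb-b2.

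The embryonic genes Hbb-y (0.78 ± 0.38 (SE)) and Hbb-bh1 (-0.21 ± 0.32 (SE)) and Hbb-bh2, a further β-like gene, (-0.44 ± 0.33 (SE)) did not pass. The third higher window, Olfr66, an olfactory receptor gene, gave 1.08 ± 0.41 (SE) and lost its call in 7 of 16 alternatives. It lies inside the window of the locus control region and shares its fragments. On the far side of the globin genes, the receptor genes Olfr67 (-0.02 ± 0.36 (SE)), Olfr68 (-0.69 ± 0.39 (SE)) and Olfr69 (-0.97 ± 0.44 (SE)) were not called. The β-globin genes sit inside a large cluster of such receptor genes. The bins with the greatest losses, nearest to Olfr578, Olfr646 and Olfr582, held 27, 27 and 23 ESC reads and no erythrocyte read. Against a floor of 3 reads over the group they were at least 9.41-, 9.41- and 8.01-fold lower. Windows called at Hbb numbered 5 without erythrocyte library 2 (2 higher and 3 lower) and 5 without erythrocyte library 3.

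At Slc25a37, contacts rose over a run of 6 adjoining bins upstream of the gene, from chr14:69915001-69920000 to chr14:69940001-69945000, with log2 fold changes of 1.11 to 2.25. These bins overlap no annotated protein-coding gene, pseudogene or lincRNA, and other gene types were not looked up. The bin with the greatest change, 38.1 kb from the captured zone, had 3162, 3755 and 3162 in erythrocytes and 738, 664 and 683 in ESC (log2 fold change 2.25 ± 0.21 (SE), adjusted p = 3.79e-04). The lowest erythrocyte library was over 4 times the highest ESC library there. Under scaling to cis and trans, the bins with the next 2 changes in size lost their calls (1.19 and 1.09, adjusted p = 0.082 and 0.1). Toward the gene, the bins over D930020E02Rik were not called (0.53 and -0.0023), nor was that gene's window (0.42 ± 0.16 (SE)). Past the run, the next gene Entpd4, a nucleotidase of the Golgi, was not called either (-0.27 ± 0.30 (SE)), and the bin at chr14:69985001-69990000 in it was lower (-1.64).

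Within the top bin, the fragment chr14:69940380-69940741 had 483, 363 and 1028 in erythrocytes and 79.1, 37.4 and 48.8 in ESC (log2 fold change 3.20 ± 0.44 (SE), adjusted p = 0.004). It was chosen after its values were seen, and its central 300 bases, mm9 chr14:69940410-69940709, plus strand, are printed because no gene of the types looked up identifies the place.
Slc25a37 contact: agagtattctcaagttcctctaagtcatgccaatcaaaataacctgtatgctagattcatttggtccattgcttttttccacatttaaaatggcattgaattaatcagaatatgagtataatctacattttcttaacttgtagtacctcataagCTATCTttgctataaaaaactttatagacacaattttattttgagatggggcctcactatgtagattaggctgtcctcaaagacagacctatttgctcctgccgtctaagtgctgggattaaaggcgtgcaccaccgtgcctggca
The stretch held 1 GATA word, and 42.5% of 2018 windows around Slc25a37 held at least 1.

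All tested bins at Slc25a37 had a median of -1.75, with 35.5% lower. Of 11 gene windows there, 6 were lower and 5 not called, with a median of -1.55. Among the lower were the homeobox gene Nkx2-6 (-1.27 ± 0.41 (SE)), the lysyl oxidase gene Loxl2, with 249, 121 and 158 in the erythrocyte libraries and 514, 561 and 715 in the ESC libraries (log2 fold change -1.75 ± 0.46 (SE), adjusted p = 0.022), the hormone gene Stc1 (-2.98 ± 0.86 (SE)), Rhobtb2 (-2.05 ± 0.54 (SE)), and the pseudogene Rps2-ps5 (-2.11 ± 0.71 (SE)). These calls rest on few erythrocyte reads, 4 at Stc1 and 9 at Rhobtb2. No window kept its call without ESC library 1, without library 2, without library 3 or with no minimum count, limma calling 0 windows in each, and TMM calls were 1 higher and 0 lower.

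At Eomes, a T-box factor of mesoderm and endoderm, more bins were lost upstream than downstream. Between 20 and 200 kb, 25 of 36 bins were lower there and 1 of 36 downstream. The bin with the greatest loss, chr9:118095001-118100000, 288 kb upstream, had 64.1, 120.2 and 24.7 in erythrocytes and 812, 621 and 783 in ESC (log2 fold change -3.42 ± 0.43 (SE), adjusted p = 2.54e-04). All tested bins at Eomes had a median of -0.54, with 17.9% lower and 1.07% higher. Of 7 windows, 3 were lower, 1 higher and 3 not called, with a median of -0.70. Azi2, an adaptor of innate immune kinases, had 147, 120.2 and 123 in the erythrocyte libraries and 444, 711 and 467 in the ESC libraries (log2 fold change -1.95 ± 0.33 (SE), adjusted p = 8.89e-04). Ctdspl, a phosphatase gene on the downstream side, had 101, 60.1 and 74.02 in the erythrocyte libraries and 433, 407 and 379 in the ESC libraries (log2 fold change -2.26 ± 0.35 (SE), adjusted p = 5.36e-04). Both calls held in all 16 alternatives. Cmc1, a cytochrome c oxidase assembly factor, gave -1.77 ± 0.37 (SE) and its call was lost with TMM (-1.24) and without ESC library 1 or 2, when 2 windows in all were called in either case.

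The nearest neighbour, Golga4, a golgin, missed the threshold, with 1099.7, 761 and 814 in the erythrocyte libraries and 1484, 1449 and 1389 in the ESC libraries (log2 fold change -0.70 ± 0.24 (SE), adjusted p = 0.054), although the groups did not overlap. Itga9, an integrin subunit (-0.57 ± 0.31 (SE)), and Zcwpw2 (0.03 ± 0.47 (SE)) were not called. The single higher window, Rbms3, an RNA-binding protein gene, rested on 21 erythrocyte and 5 ESC reads (log2 fold change 2.35 ± 0.67 (SE), adjusted p = 0.023). It lost its call in 9 of the 15 alternatives that gave it a result. The 3 higher bins of greatest change held no ESC read and 11, 13 and 11 erythrocyte reads. They lost their calls without any 1 of the ESC libraries, with TMM and with no minimum count.

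At Foxa2, a forkhead factor of endoderm and floor plate, contacts with other developmental genes 684 to 1824 kb away were lost. Pax1, a paired-box factor of the sclerotome, had 29.9, 50.3 and 55.3 in the erythrocyte libraries and 1997, 1969 and 1864 in the ESC libraries (log2 fold change -5.18 ± 0.37 (SE), adjusted p = 1.74e-06), from 589 ESC reads and 7 erythrocyte reads. Nkx2-2, a homeobox factor of the ventral neural tube and the pancreas, had 59.7, 25.2 and 55.3 in the erythrocyte libraries and 1417, 1676 and 1326 in the ESC libraries (log2 fold change -4.76 ± 0.40 (SE), adjusted p = 6.88e-06). The homeobox gene Nkx2-4 had 100 ESC reads and 2 erythrocyte reads, a pooled ratio of 29.2 with a counting interval of 7.88 to 245 (log2 fold change -4.54 ± 0.62 (SE), adjusted p = 2.58e-04). Insm1, a zinc-finger factor of neuroendocrine cells, gave -3.67 ± 0.63 (SE). These 4 windows were the strongest at lower coordinates, and their calls held in all 16 alternatives.

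The 3 bins of greatest loss at Foxa2 all overlapped Pax1, and the first, chr2:147185001-147190000, had 19.9, 0 and 0 in erythrocytes and 759, 709 and 704 in ESC. Thbd, the thrombomodulin gene on the other side, had 29.9, 50.3 and 27.6 in the erythrocyte libraries and 413, 566 and 677 in the ESC libraries (log2 fold change -3.62 ± 0.45 (SE), adjusted p = 1.37e-04), and the neighbouring Sstr4, a somatostatin receptor, gave -2.66 ± 0.51 (SE). Also lower were Xrn2, an RNA exonuclease (-2.72 ± 0.68 (SE)), Nxt1, an mRNA export factor (-2.07 ± 0.49 (SE)), and Gzf1, a zinc-finger protein (-2.23 ± 0.55 (SE)). Each of the latter 3 lost its call with TMM, DESeq2, no minimum count and without ESC library 2. Ralgapa2, which had 20 ESC reads and none in erythrocytes, was at least 3.898-fold lower. Cd93 (-1.38 ± 0.84 (SE)) and Napb (-0.69 ± 0.62 (SE)) did not pass. In all, 10 of 12 windows were lower, with a median of -2.78. All tested bins had a median of -1.18, with 28.6% lower. The bin median was -0.14 under 20 kb, -0.57 from 20 to 200 kb and -1.38 from 200 kb to 2 Mb. The single higher bin, chr2:147820001-147825000, gave 1.56 and lost its call in 10 alternatives.

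At Lhx1, a LIM homeobox factor of the organiser, kidney and neurons, the greatest loss was also at a distant developmental gene. Tbx4, a T-box factor of the hindlimb 1360.3 kb away, had 10.6, 32.02 and 0 in the erythrocyte libraries and 642, 812 and 737 in the ESC libraries (log2 fold change -5.16 ± 0.57 (SE), adjusted p = 0.0023), from 225 ESC reads and 2 erythrocyte reads, a pooled ratio of 58.3 with a counting interval of 15.96 to 485. Mrm1, a mitochondrial rRNA methyltransferase, gave -2.75 ± 0.41 (SE) and Dhrs11, a dehydrogenase whose start is close by, -2.96 ± 0.87 (SE) with an adjusted p of 0.046. The calls of Tbx4 and Mrm1 were lost without ESC library 2, when limma called 0 windows, and held in the other 15 alternatives, and Dhrs11 was lost in 9.

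Of 21 windows at Lhx1, 19 were tested and 2 fell short of the read minimum. Of those tested, 4 were lower and 15 not called, with a median of -1.01. All tested bins had a median of -0.94, with 15.9% lower. Aatf, the nearest gene and an apoptosis antagonist, had 2247, 2786 and 2363 in the erythrocyte libraries and 4345, 4191 and 3544 in the ESC libraries (-0.71 ± 0.21 (SE), adjusted p = 0.05001), just outside the threshold. Acaca, the acetyl-CoA carboxylase gene, shares its window's fragments with Tada2a, and both gave -0.62 ± 0.40 (SE), not called. Between 20 and 200 kb, 13 of 36 bins at higher coordinates, upstream of the gene, were lower, and all calls of this class lay on that side. The bin with the greatest loss, chr11:85700001-85705000 at Tbx4, had 10.6, 32.02 and 0 in erythrocytes and 444, 694 and 598 in ESC (log2 fold change -4.82 ± 0.59 (SE), adjusted p = 0.0029).

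**Figure D5:**
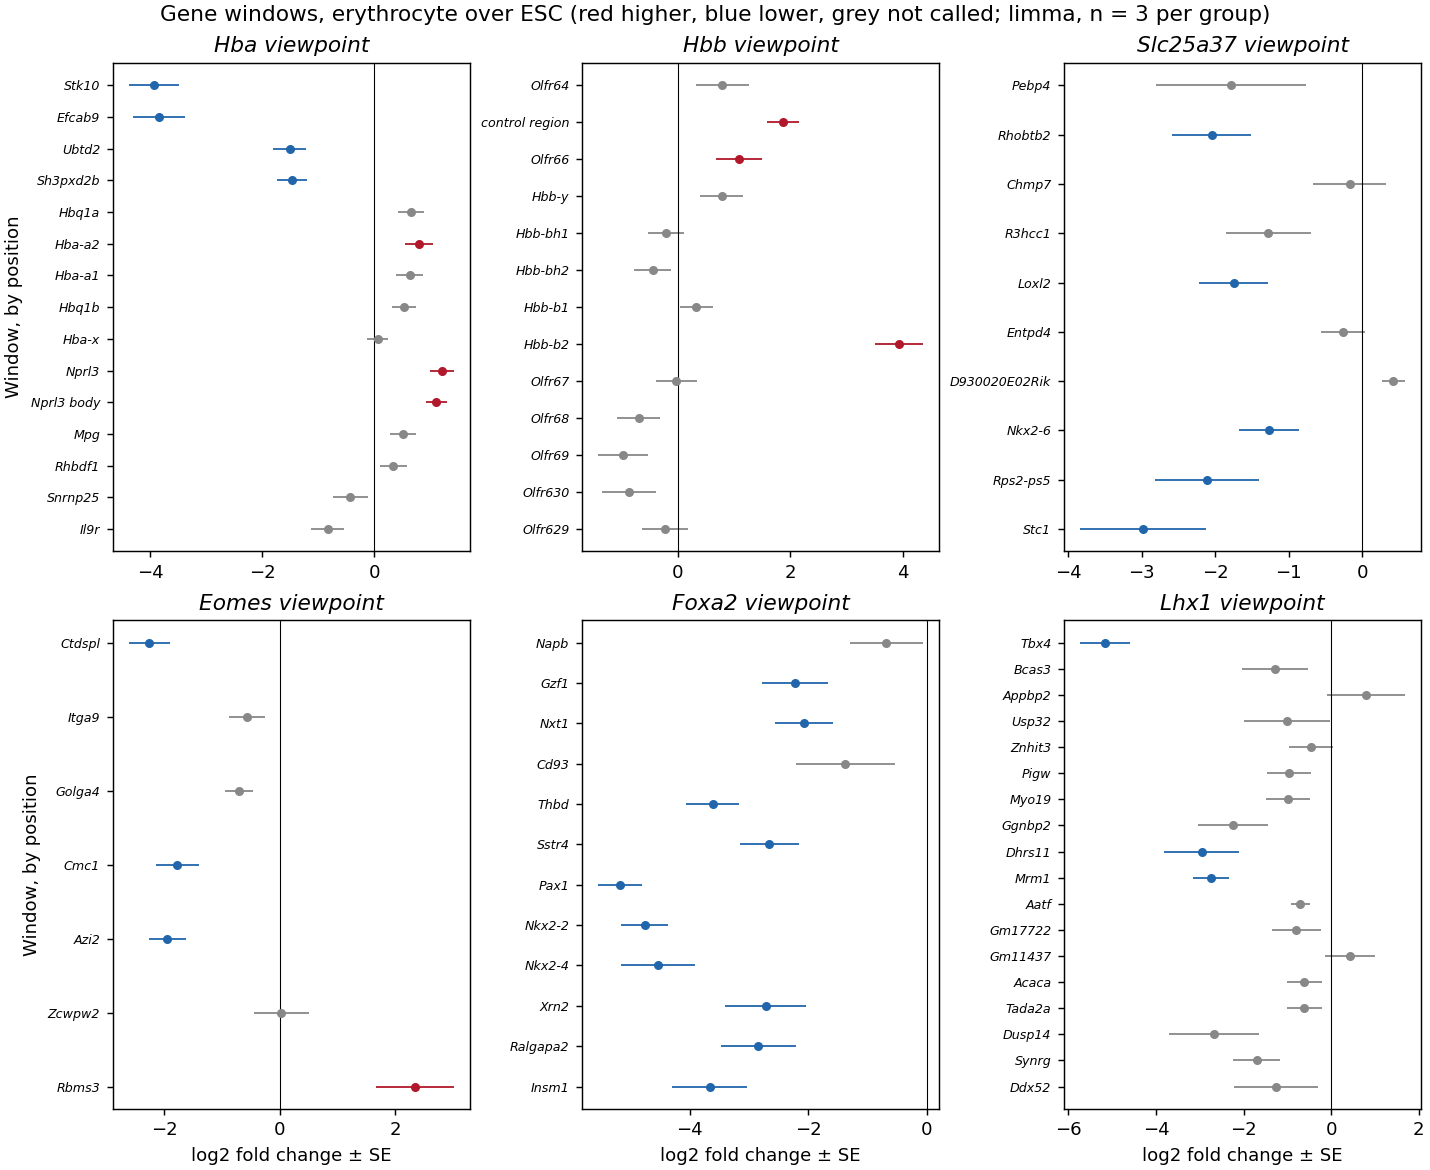
The log2 fold change (erythrocyte over ESC, ± SE of the fit, n = 3 per group) of the gene windows reported, ordered by position along the chromosome within each viewpoint. Red windows were higher and blue lower in erythrocytes by limma, and grey windows were not called. Red windows are those of Nprl3 and its body, Hba-a2, the locus control region, Hbb-b2, Olfr66 and Rbms3, and the blue windows furthest left lie at Pax1, Nkx2-2, Nkx2-4 and Tbx4.

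Beyond 2 Mb, contacts were tested in 500 kb bins, and on the scale of 100000 cis interactions more bins were higher than lower at every viewpoint. At Eomes 53 of 206 bins were higher in erythrocytes (25.7%) and 5 lower (2.43%). At Foxa2 54 of 278 were higher (19.4%) and 8 lower (2.88%). Hbb had 38 of 235 higher (16.2%) and 7 lower (2.98%), and Hba 28 of 231 higher (12.1%) and 3 lower (1.30%). At Lhx1 27 of 204 were higher (13.2%) and 2 lower (0.980%). Slc25a37 had 4 of 218 higher (1.83%) and 1 lower (0.459%), and its median far bin was lower (-0.51), where the others ran from 0.42 to 0.53.

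These far values changed with the scaling. With TMM the calls were 17 higher and 21 lower at Eomes, 20 higher and 36 lower at Foxa2, 11 higher and 21 lower at Hba, 0 higher and 8 lower at Lhx1 and 27 higher and 14 lower at Hbb, and the medians of the first 4 turned negative. Scaled to cis and trans together they were 12 higher and 5 lower at Eomes, 14 higher and 7 lower at Foxa2, 2 higher and 9 lower at Hba, 10 higher and 37 lower at Hbb and 0 higher and 16 lower at Slc25a37. DESeq2 gave 10 higher and 13 lower at Eomes, 16 higher and 31 lower at Foxa2, 20 higher and 13 lower at Hba, 19 higher and 13 lower at Hbb and 0 higher and 3 lower at Lhx1. With erythrocyte library 2 alone they were 47 higher and 35 lower at Hba, 2 higher and 0 lower at Hbb, 23 higher and 75 lower at Slc25a37 and 38 higher and 10 lower at Eomes. Single libraries also decided counts. Against 45 called at Hbb, 10 were called without erythrocyte library 1, 21 without library 2 and 20 without ESC library 2. Against 31 at Hba, 75 were called without erythrocyte library 2, 61 without library 3 and 19 without ESC library 1. At Lhx1 the number went from 29 to 1 without erythrocyte library 1, to 68 without library 3, and to 12, 17 and 14 without ESC library 1, 2 or 3. At Foxa2 it went from 62 to 96 without erythrocyte library 3. At Slc25a37, where 5 bins were called, the number was 35, 0 and 25 without erythrocyte library 1, 2 or 3, and 0 without ESC library 1 or 3. Subtracting the trans density left 46 higher and 8 lower at Eomes, 49 higher and 9 lower at Foxa2 and 34 higher and 21 lower at Hbb.

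Gene starts and GC content of the far bins are given as a description, with no test. At Hbb the 38 higher bins held a median of 9 gene starts and a GC content of 45.2%, the 7 lower bins, none of which were called without erythrocyte library 2 or without ESC library 1 or 3, 2 gene starts and 39.4%, and all tested bins 4 and 43.7%. Higher bins against all tested bins held a median of 12.5 against 5 gene starts at Hba, 10 against 6 gene starts at Lhx1, 1.5 against 4 gene starts at Foxa2, 4 against 4 gene starts at Eomes and 5.5 against 2 at Slc25a37, in no common direction. Across the 235 bins at Hbb, which share libraries and are not independent, fold change and GC content had a Pearson correlation of 0.54. The signal itself correlated with GC content at -0.28, -0.404 and -0.29 in the ESC libraries and at 0.28, 0.26 and 0.12 in the erythrocyte libraries, opposite in sign in all 3 of each. At Eomes the correlation of fold change with GC content was -0.29, with the signal correlated positively in every library of both groups, and at Slc25a37, Foxa2, Lhx1 and Hba it was 0.16, -0.053, -0.0097 and 0.13. A part for GC-dependent yield of a library in these values was not tested.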

How the data were processed

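NG Capture-C with promoter oligonucleotides was analysed in 3 erythrocyte and 3 ESC libraries. Per the study's methods, the authors mapped reads with the Capture-C scripts, and the submitters' processing notes name Trim Galore, Bowtie and mm9, whose versions are not stated there. The deposited values are the signal of each DpnII fragment, scaled by the authors to 100000 interactions per library and viewpoint. Whole reads were recovered from the steps of these values (100% whole within 0.05 of a read in each column), with 3744 to 86404 reads per column. Duplicate handling is not given, and intervals cover counting error only.

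Reads were summed in bins and in windows of 5 kb to each side of gene starts, and scaled to 100000 cis interactions of the column. Features with at least 10 reads over the 6 libraries were fitted with limma 3.58.1 in R 4.3.3 (lmFit and eBayes with trend, log2 of signal plus 10). The 5 kb bins and gene windows of a viewpoint were fitted together, with Benjamini-Hochberg adjustment over both. Its far bins were fitted and adjusted apart. Shares and slopes were compared by two-sided exact permutation tests. In all, 24 class shares, 12 side shares and 6 each of the other measures were compared, and since the smallest p is 0.1 none can pass 0.05 with or without adjustment. Windows reported were those of a list of neighbouring genes and the 5 protein-coding starts nearest on each side within 500 kb. A few windows are counted but not reported here by name. Bins were picked as up to 3 higher and 3 lower by fold change without overlap between groups, over 10 kb from the captured zone. Not all of the picked bins are named here. Regions and fragments named beyond these were chosen after their values were seen. The viewpoints and lists were chosen with earlier results of these data known.

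Alternatives included edgeR 4.0.16 and DESeq2 1.42.0 on the recovered reads, TMM, scaling to cis and trans, no read minimum, subtraction of the trans density, and leaving out each library. Sums, shares and permutation tests were run in Python 3.11.15 (scipy 1.17.1, pandas 2.3.3, numpy 2.4.6), and figures were drawn with matplotlib 3.10.9. The fits were also run on simulated data in which all libraries had the same spread. The erythrocyte libraries here differed more among themselves than the ESC libraries, so those runs cannot tell how the fits behave on them. The 4 deposited files of other cells and of enhancer capture were not used here.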

Additional observations from a re-analysis of the deposited data

How the results depend on the processing

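The share of cis interactions from 200 kb to 2 Mb, the side shares and the median distances kept their direction in every alternative run. The cause of the changes below was not tested, except that fewer libraries or features enter the tests that leave some out. With erythrocyte library 2 alone, a setting chosen after seeing the data in which that library is assumed to vary like the ESC, the cis share difference became 2.16 at Hba, 1.98 at Hbb, 11.4 at Slc25a37, 12.5 at Eomes, 11.3 at Foxa2 and 11.2 at Lhx1 percentage points, and the share under 20 kb -2.95 at Eomes, -1.74 at Foxa2 and -5.87 at Lhx1. For Slc25a37 from 20 to 200 kb the difference became 4.34 with that library, 3.35 with classes starting at 10 kb and 0.771 with the trans density subtracted, which gave -3.098 beyond 2 Mb. For Hbb from 20 to 200 kb, classes starting at 50 kb gave -4.49. Slopes from 50 kb to 5 Mb differed by 0.15 at Hba, 0.045 at Hbb, 0.13 at Slc25a37, 0.13 at Foxa2 and 0.23 at Lhx1. The Hba-a2 window changed to -0.088 under scaling to cis and trans.

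Counts of called 5 kb bins became, with no minimum count, 115 at Hba, 6 at Slc25a37, 34 at Eomes, 36 at Foxa2 and 14 at Lhx1; with single DpnII fragments, 772 at Hba, 78 at Hbb, 57 at Slc25a37 and 91 at Lhx1. TMM gave 131 at Hbb, 62 at Slc25a37, 11 at Eomes, 71 at Foxa2 and 28 at Lhx1, DESeq2 102 at Hbb, 23 at Slc25a37, 39 at Eomes, 42 at Foxa2 and 18 at Lhx1, and a pseudocount of 2 68 at Slc25a37, 58 at Eomes and 72 at Foxa2. Counts of far bins became, per 100000 in cis and trans, 11 at Hba, 16 at Slc25a37, 17 at Eomes, 21 at Foxa2 and 0 at Lhx1; with the trans density subtracted, 15 at Hba and 0 at Slc25a37. For these bins edgeR gave 47 at Hba, 17 at Slc25a37 and 48 at Lhx1, TMM 9 at Slc25a37, 38 at Eomes and 8 at Lhx1, DESeq2 13 at Slc25a37, 23 at Eomes and 3 at Lhx1, erythrocyte library 2 alone 82 at Hba, 2 at Hbb, 98 at Slc25a37 and 59 at Lhx1, and 250 kb bins 8 at Slc25a37 and 8 at Lhx1. Gene window counts became 4 at Hba and 1 at Hbb per 100000 in cis and trans, 11 at Hba, 5 at Hbb and 6 at Foxa2 with DESeq2, 6 at Hbb and 1 at Slc25a37 with TMM, 0 at Slc25a37 and 6 at Foxa2 with no minimum count, 11 at Hba with erythrocyte library 2 alone, and at Slc25a37 2 with a pseudocount of 2 and 3 per 100000 cis interactions beyond 20 kb.

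With each library left out in turn, the differences ranged over -2.87 to 2.23 at Slc25a37 from 20 to 200 kb and -2.26 to 4.301 beyond 2 Mb, and under 20 kb over -1.22 to 8.12 at Eomes, -1.41 to 12.3 at Foxa2 and -4.45 to 8.12 at Lhx1. The cis share differences ranged over -42.4 to -19.8 at Hba, -44.9 to -20.3 at Hbb, -26.6 to -6.82 at Slc25a37, -22.5 to -4.5999 at Eomes, -24.3 to -6.07 at Foxa2 and -24.2 to -6.43 at Lhx1. The 5 kb counts ranged over 69 to 296 at Hba, 154 to 241 at Hbb, 39 to 164 at Slc25a37, 14 to 102 at Eomes, 51 to 127 at Foxa2 and 0 to 69 at Lhx1, the far counts over 19 to 75 at Hba, 10 to 45 at Hbb, 0 to 35 at Slc25a37, 43 to 58 at Eomes, 43 to 96 at Foxa2 and 1 to 68 at Lhx1, and the window counts over 6 to 11 at Hba, 2 to 5 at Hbb, 0 to 7 at Slc25a37, 2 to 5 at Eomes, 7 to 10 at Foxa2 and 0 to 6 at Lhx1.

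Replicate numbers are shared by the groups as labels only: deviations of same-numbered libraries from their group means correlated at -0.14 to 0.07. With the replicate number as a block, called 5 kb bins were 256 at Hba, 265 at Hbb, 139 at Slc25a37, 99 at Eomes, 113 at Foxa2 and 44 at Lhx1, far bins 21 at Hba, 43 at Hbb, 14 at Slc25a37, 53 at Eomes, 63 at Foxa2 and 33 at Lhx1, and gene windows 9 at Hba, 3 at Hbb, 7 at Slc25a37, 4 at Eomes, 10 at Foxa2 and 6 at Lhx1, and the mean paired slope differences were the unpaired ones, from -0.71 at Hbb to 0.13 at Eomes. Depth limits the map beyond 200 kb, where many tested bins held few reads, and a bin short of 10 reads was not tested.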
